A study of Mus musculus with 8 samples.

Results

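Hamp, Hamp2, Tfrc, Tfr2, Trf, Slc40a1, Bmp6, Fth1, Hp and Hpx encode the hepcidins and proteins that sense, carry, import, export, store or scavenge iron and haem. The 10 genes were taken by symbol from the 19321 genes of the array, and each had 1 probe. All 10 were listed above the blank level on all 8 arrays, so none was lost to the filter on low signals. Total liver RNA had been measured on single-colour arrays in 3 kinds of tissue. Tumour tissue and non-tumour tissue were both taken from the livers of DMBA-treated mice 117, 186 and 1 on high fat diet, and DMBA-treated normal diet-fed mice 117 and 120 gave whole liver samples. DMBA is a carcinogen that all animals, the normal diet mice included, received at 4 to 5 days old, before 30 weeks of diet, so no liver without carcinogen was compared. The number 117 stands for different animals on the 2 diets. Non-tumour tissue came from livers that held tumours, so its differences from normal diet liver cannot be assigned to diet alone. Strain and sex are not given in the sources used here, and the tissue was bulk liver, in which fewer cells of a type and less RNA per cell cannot be told apart.

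Hepcidin, the product of Hamp, is a peptide hormone that hepatocytes secrete into blood. It binds ferroportin, the iron exporter encoded by Slc40a1, and causes its removal from the membranes of gut cells, macrophages and hepatocytes, so that less iron enters plasma. Hepatocytes raise Hamp transcription when bone morphogenetic proteins such as BMP6 signal through SMAD proteins, and when interleukin-6 signals through STAT3. Mice carry a closely related second gene, Hamp2, next to Hamp. Levels below are the deposited normalized intensity, a linear scale on which the median listed probe of each array stands at 25. Differences are log2 fold changes ± SE from limma, which added a fixed offset to every signal and therefore understates the change of dim genes. A gene is said to have changed where its p adjusted over all 16798 genes tested was below 0.05.

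The sequences just upstream of the hepcidin genes are shown because both signalling routes act through short elements there. Each line holds the 250 bases before the annotated RNA start, 5′ to 3′ on the minus strand of GRCm38.p6, from RefSeq, at chr7:30944030-30944279 for Hamp and chr7:30924182-30924431 for Hamp2. Capitals mark the letters GGCGCC, the core of a BMP response element, or the 6 bases of Hamp2 aligned to it, and a match to the STAT site TTCNNNGAA.
Hamp: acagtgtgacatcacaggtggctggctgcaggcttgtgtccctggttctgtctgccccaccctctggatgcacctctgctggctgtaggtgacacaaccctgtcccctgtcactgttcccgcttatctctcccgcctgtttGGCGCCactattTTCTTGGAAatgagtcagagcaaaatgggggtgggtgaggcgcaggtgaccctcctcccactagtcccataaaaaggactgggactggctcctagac
Hamp2: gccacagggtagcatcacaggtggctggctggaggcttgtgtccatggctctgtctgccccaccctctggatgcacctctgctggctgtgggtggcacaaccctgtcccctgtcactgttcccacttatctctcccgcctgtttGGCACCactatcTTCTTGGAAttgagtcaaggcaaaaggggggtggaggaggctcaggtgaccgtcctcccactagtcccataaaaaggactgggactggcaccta

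Of 247 aligned bases 227 were identical (91.9%), and 20 were substitutions. One substitution, G145A counted from 1 at the 5′ end of the Hamp line, fell within the GGCGCC of Hamp, so those 6 letters were absent from Hamp2. The element began 109 bases before the start of Hamp, and the aligned bases began 106 before the start of Hamp2. The STAT site match was the same 9 bases in both genes, 97 and 94 bases before the start of Hamp and Hamp2. Both motifs read the same on either strand and did not overlap. GGCGCC occurred in 9.59% of 32851 upstream windows of this length, TTCNNNGAA in 7.02% and both together in 0.368%. Of the 10 genes 7 had upstream windows in the table, 11 windows in all, and Trf, Slc40a1 and Hp had none. Among the genes other than the hepcidins, Tfrc had a match to GGCGCC, 89 bases before the first of its listed starts, and none had a match to TTCNNNGAA. A match describes letters and was not tested as a binding site.

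Between 81.8% and 88.5% of probes were listed per array, and arrays correlated at 0.984 to 0.996 within groups and 0.919 to 0.983 between groups. The liver label was checked against Alb, the albumin gene of hepatocytes. It averaged 47269 ± 1825 in tumours, 46977 ± 1741 in non-tumour tissue and 54610 ± 2614 in normal diet liver (SD, n = 3, 3 and 2). Alb did not pass between tumour and non-tumour tissue (0.04 ± 0.04, limma, adjusted p = 0.559), so it cannot check which tissue was tumour. Of 12 hepatocyte markers, 5 were higher and 2 lower in tumours than in non-tumour tissue (58.3%, against 25.4% of all genes). Of 6 bile duct markers, 1 (Tspan8) was higher and 1 (Cftr) lower in tumours than in non-tumour tissue (33.3%, against 25.4% of all genes). The other bile duct markers did not pass. The 3 comparisons share arrays and are not independent of each other. Background correction with the reading beside each spot, which followed the spot's own signal (rank correlation 0.902 to 0.960), left 126, 3 and 220 genes changed between tumour and non-tumour, non-tumour and normal diet, and tumour and normal diet. Under it limma called 0, 0 and 1 of the 10 genes (3, 3 and 4 at an unadjusted p below 0.05), and it is not repeated at each result below.

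Between tumour and non-tumour tissue of the same livers, the plasma carriers and scavengers Trf, Hp and Hpx rose, and Hamp2, the transferrin sensor Tfr2, the exporter Slc40a1 and the ferritin gene Fth1 fell. That is 3 higher and 4 lower of 10, where 25.4% of all genes changed, 12% higher and 13.4% lower. The rises depended on scaling: 1 was higher and 4 were lower with arrays scaled to the same median, and 0 and 4 with the authors' values, by limma (0 and 6 at an unadjusted p below 0.05). The deposited intensities of the groups did not overlap for 8 of the 10 genes, 3 higher and 5 lower, against 37.1% of all genes (15% higher and 22.2% lower). The quantile normalized log2 signals, on which the tests ran, gave the same 8 genes, against 41.4% of all genes (19.1% higher and 22.3% lower). The median log2 fold change was -0.42 over the 10 genes and -0.01 over all genes tested. Between non-tumour tissue and normal diet liver, Trf and Hp rose and 0 of the 10 fell by limma (1 at an unadjusted p below 0.05), where 3.83% of all genes changed, 1.81% higher and 2.02% lower. Here the deposited intensities did not overlap for 9 of 10 genes, 4 higher and 5 lower, against 44.2% of all genes (12.9% higher and 31.3% lower). The normalized log2 signals did not overlap for 7, 5 higher and 2 lower, against 44% of all genes (21% higher and 23% lower), since Hamp2, Tfr2 and Slc40a1 overlapped there and Trf did not. The median log2 fold change was 0.14 over the 10 genes. Between tumours and normal diet liver, Trf, Hp and Hpx rose and Hamp, Hamp2, Tfr2 and Slc40a1 fell, where 27.9% of all genes changed, 12.9% higher and 15% lower. The deposited intensities did not overlap for 9 of 10 genes, 3 higher and 6 lower, against 55.6% of all genes (16.8% higher and 38.9% lower). The normalized log2 signals did not overlap for 7, 3 higher and 4 lower, against 57.3% of all genes (25.5% higher and 31.8% lower).

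**Figure D1:**
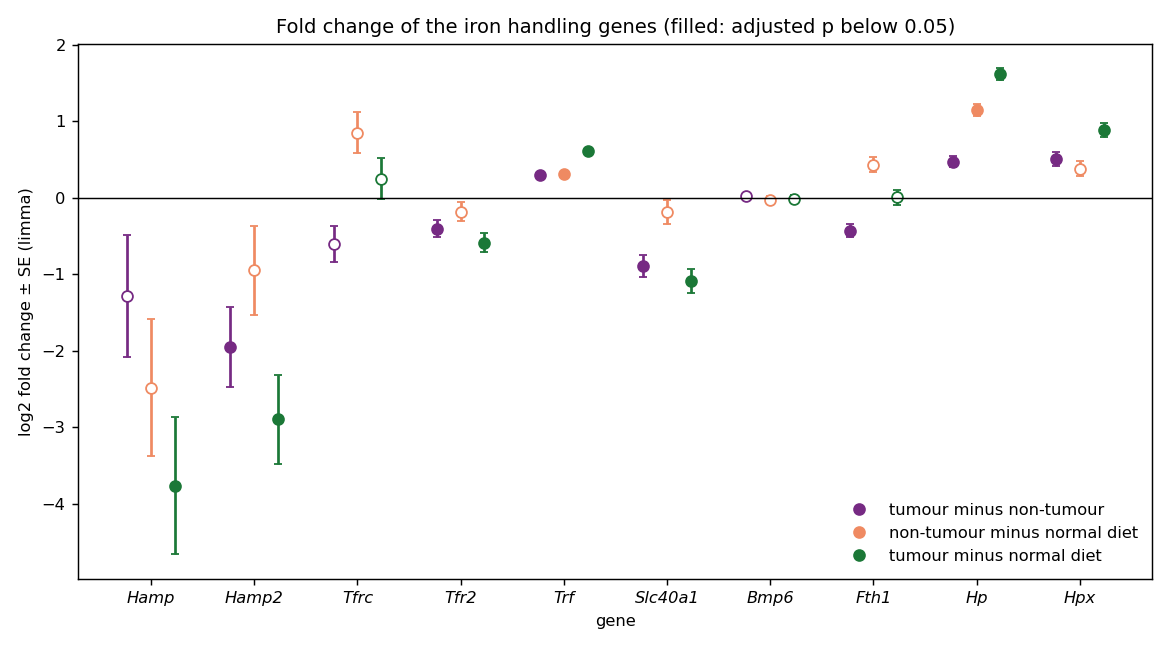
Log2 fold change ± SE (limma) of the 10 genes in 3 comparisons, with filled points where the adjusted p was below 0.05. Hamp and Hamp2 lie farthest below 0 against normal diet liver, at -3.77 and -2.90 in tumours, and Hp lies highest, at 1.61.

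Hamp was far lower in all tumours than in normal diet liver, and non-tumour tissue of high fat diet livers lay between with a wide spread. The intensity was 711.3, 925.9 and 356.9 in the tumours of mice 117, 186 and 1, against 814.0, 1203.2 and 7020.8 in their non-tumour tissue and 15457.4 and 10406.6 in normal diet mice 117 and 120. Both normal diet livers were above every high fat diet sample, and the non-tumour sample of mouse 1 stood apart from the rest, with a highest over lowest ratio of 8.63 in that group. Means were 665 ± 287 in tumours, 3013 ± 3477 in non-tumour tissue and 12932 ± 3571 in normal diet liver (SD, n = 3, 3 and 2).

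Tumours were lower in Hamp than normal diet liver by a log2 fold change of -3.77 ± 0.90 (limma, adjusted p = 0.0232). That call was lost without normal diet mouse 117 (adjusted p = 0.133) or 120 (0.0872), or without the tumour of mouse 117 (0.0528) or 1 (0.0558), with 0.00374 to 0.133 over all alternatives. Non-tumour tissue did not pass against normal diet liver (-2.48 ± 0.90, adjusted p = 0.190). Without the non-tumour sample of mouse 1 the difference was -3.37 and passed (adjusted p = 0.0479, the lowest of 0.0479 to 0.924 over the alternatives). Tumour against non-tumour tissue did not pass either (-1.28 ± 0.80, adjusted p = 0.311), and the value was -0.40 without the non-tumour sample of mouse 1. Within livers, the tumour held 87.4%, 77.0% and 5.08% of the deposited Hamp intensity of the non-tumour tissue in mice 117, 186 and 1. On the normalized log2 scale of the test the tumour minus non-tumour differences were 0.13, -0.06 and -3.91, so the direction in mouse 117 turned with the scaling.

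Hamp2, whose product is not established as an iron hormone, was lower in tumour than in non-tumour tissue in each liver. Its intensity was 227.2, 310.6 and 69.7 in tumours of mice 117, 186 and 1, against 734.5, 734.7 and 1498.4 in non-tumour tissue and 2951.2 and 1627.8 in normal diet liver. On this scale no group overlapped another, though non-tumour and normal diet values did after normalization, and mouse 1 had both the lowest tumour and the highest non-tumour value, as for Hamp. The tumour held 30.9%, 42.3% and 4.65% of the non-tumour intensity in mice 117, 186 and 1. Tumours were lower than non-tumour tissue (log2 fold change -1.95 ± 0.52, adjusted p = 0.0359) and lower than normal diet liver (log2 fold change -2.90 ± 0.58, adjusted p = 0.0126), while non-tumour tissue against normal diet liver did not pass (-0.95 ± 0.58, adjusted p = 0.432).

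The call between tumour and non-tumour tissue was lost with mouse as a block (adjusted p = 0.125), with only the compared groups or without either normal diet array (0.0566 each), without the tumour of mouse 117 (0.0643), and without the non-tumour tissue of mouse 117 (0.0704), 186 (0.0706) or 1 (0.107). The adjusted p ran from 0.0109 to 0.397 over its alternatives, and the call against normal diet liver was lost without normal diet mouse 117 (0.0919, range 0.00206 to 0.543). Hamp and Hamp2 transcripts are closely alike, the probe sequences were not used here, and signal of one gene on the probe of the other cannot be told apart from its own.

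**Figure D2:**
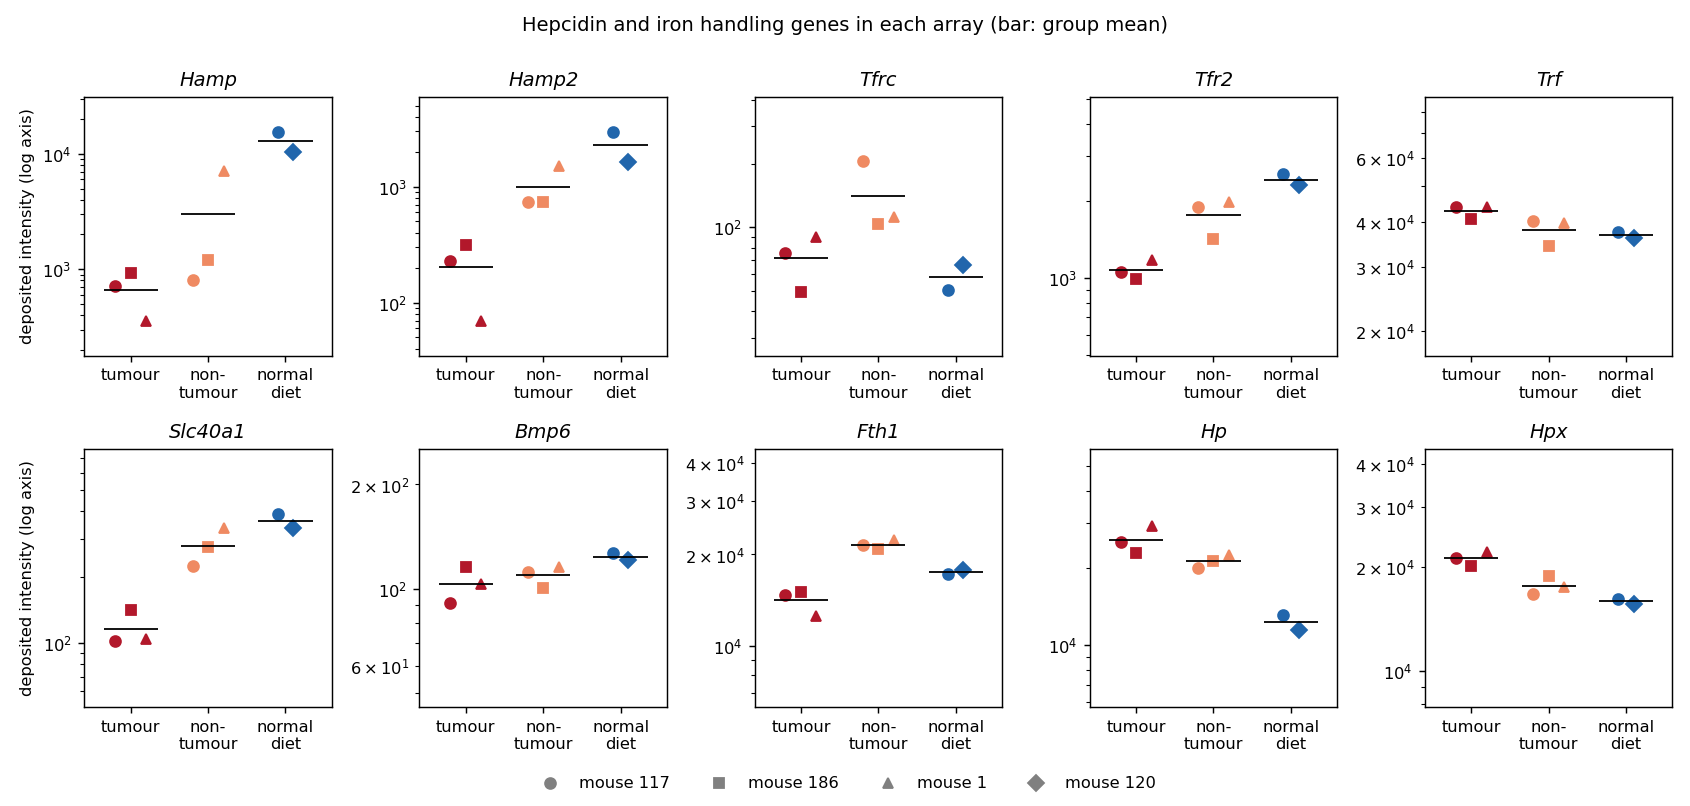
Deposited normalized intensity (log axis) of the 10 genes on each array, with 1 panel per gene, symbols for mouse numbers and bars for group means. The non-tumour sample of mouse 1 lies at 7020.8 for Hamp, apart from 814.0 and 1203.2 in mice 117 and 186, while the tumours lie below non-tumour tissue for Slc40a1 and Fth1. Mouse 117 on normal diet is another animal than mouse 117 on high fat diet.

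The genes most like Hamp over the 8 arrays were Cyp2c23, Hamp2, Nat8, Cyp2c37 and Cyp7b1. Likeness was the root mean square difference of log2 signals centred on their own means, which was 0.76, 0.80, 0.82, 0.84 and 0.84 for these genes. Hamp2 thus ranked 2 among all other tested genes, whereas Slc40a1 ranked 218 (1.33) and Tfr2 ranked 774 (1.52). The measure also counts the size of changes, and Bmp6, which varied little, stood near them in value at 1.70 (rank 6623). The ranks of Slc40a1 and Tfr2 therefore do not show a shared pattern with Hamp. Cyp2c23 and Cyp2c37 encode cytochrome P450 enzymes, and Cyp7b1 an oxysterol hydroxylase of bile acid synthesis. Cyp7b1 had 135.9, 178.3 and 37.0 in tumours of mice 117, 186 and 1, 681.0, 531.8 and 851.8 in non-tumour tissue and 3117.8 and 4290.0 in normal diet liver. Like Hamp, it was lowest in the tumour of mouse 1 and highest in normal diet liver. The ranking describes 8 arrays of 3 tissues and is no test.

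Bmp6, the ligand that liver endothelial cells release when iron is plentiful, passed in no comparison. Its intensity was 91.3, 115.4 and 103.6 in tumours of mice 117, 186 and 1, 111.7, 100.8 and 116.0 in non-tumour tissue and 126.8 and 120.9 in normal diet liver. On this scale normal diet liver was above both other groups, and tumour and non-tumour values overlapped. After normalization tumour and normal diet values overlapped too. The log2 fold change was 0.02 ± 0.05 for tumour against non-tumour tissue (adjusted p = 0.839), -0.03 ± 0.05 for non-tumour against normal diet (0.788) and -0.02 ± 0.05 for tumour against normal diet (0.851). These differences were small beside those of the hepcidin genes. Stab2, a scavenger receptor that marks sinusoidal endothelium, averaged 49.2 ± 14.3 in tumours, 48.8 ± 4.14 in non-tumour tissue and 29.1 ± 13.01 in normal diet liver. The summed level of 13 endothelial markers was 968.6 to 1553.1 in tumours, 1335.4 to 1474.9 in non-tumour tissue and 1449.5 to 1790.5 in normal diet liver. Clec4g, the brightest of them on every array, averaged 295 ± 90.6, 499 ± 17.1 and 616 ± 154 in tumour, non-tumour and normal diet tissue. By limma 2 markers were higher and 0 lower in tumours than in non-tumour tissue (1 lower at an unadjusted p below 0.05). That is 15.4%, against 25.4% of all genes. Bmp2, the other main endothelial ligand of the route, averaged 24.2 ± 6.08, 22.4 ± 4.38 and 30.3 ± 4.74 in tumour, non-tumour and normal diet tissue and did not pass between tumour and non-tumour tissue (0.03 ± 0.06, adjusted p = 0.765).

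Tfr2, a hepatocyte receptor that senses transferrin loaded with iron and is needed for normal hepcidin levels, was lower in tumours. It had 1050.8, 992.3 and 1176.4 in tumours of mice 117, 186 and 1, against 1892.8, 1416.7 and 1972.0 in non-tumour tissue and 2542.9 and 2300.1 in normal diet liver. On this scale no group overlapped another, though non-tumour and normal diet values did after normalization, and in mice 117, 186 and 1 the tumour held 55.5%, 70.0% and 59.7% of the non-tumour level. Tumours were lower than non-tumour tissue (log2 fold change -0.40 ± 0.11, adjusted p = 0.0367) and lower than normal diet liver (log2 fold change -0.58 ± 0.12, adjusted p = 0.0142), and non-tumour against normal diet did not pass (-0.18 ± 0.12, adjusted p = 0.479).

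The call between tumour and non-tumour tissue was lost with the blank mean subtracted (adjusted p = 0.0582), with mouse as a block (0.0576), with only the compared groups or without either normal diet array (0.0614 each), and without the tumour of mouse 117 (0.0859), 186 (0.0868) or 1 (0.0801) or the non-tumour tissue of mouse 117 (0.101) or 1 (0.111). Over its alternatives the adjusted p ran from 0.00270 to 0.19996, and the call against normal diet liver was lost without normal diet mouse 117 (0.0978) or 120 (0.0553), in a range of 0.00148 to 0.3002.

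Of 26 other genes of hepcidin control, comprising BMP ligands, receptors, SMADs and iron sensors, 7 rose and 2 fell in tumours against non-tumour tissue (34.6%, against 25.4% of all genes). Their median log2 fold change was 0.07, against -0.01 over all genes. Smad4, among those that rose (0.19 ± 0.05, limma, adjusted p = 0.0455), kept its call under 2 of 17 alternatives. Id1, a target gene of BMP and SMAD signalling, averaged 718 ± 123 in tumours, 116 ± 13.3 in non-tumour tissue and 211 ± 47.6 in normal diet liver. Its rise over non-tumour tissue was 2.45 ± 0.17 (adjusted p = 0.000467) and passed under all 17 alternatives, local background correction included. Id1 was thus higher in the tumours in which Hamp2 was lower. Bmp4, another ligand, averaged 81.4 ± 12.5, 35.8 ± 1.66 and 36.8 ± 6.58 in tumour, non-tumour and normal diet tissue (0.68 ± 0.07 in tumour against non-tumour tissue, adjusted p = 0.00117). Id2, a further SMAD target, rose by 1.00 ± 0.21 (adjusted p = 0.0152), a call lost with arrays scaled to the same median (0.0546), with the authors' values (0.0661) and without the non-tumour tissue of mouse 117 (0.0517).

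Hfe, which encodes the membrane protein mutated in the commonest hereditary haemochromatosis, averaged 207 ± 29.9 in tumours, 396 ± 12.6 in non-tumour tissue and 364 ± 35.6 in normal diet liver. It fell by 0.66 ± 0.12 on the log2 scale in tumours against non-tumour tissue (adjusted p = 0.00930). Tmprss6, a hepatocyte protease that restrains hepcidin by cleaving hemojuvelin, averaged 433.5 ± 54.4 in tumours, 779 ± 82.3 in non-tumour tissue and 965 ± 29.2 in normal diet liver, and fell by 0.57 ± 0.07 in tumours against non-tumour tissue (adjusted p = 0.00298). Genes known to promote and to restrain hepcidin were thus both among those that fell.

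Between non-tumour tissue and normal diet liver, 1 gene of this list rose and 2 fell (11.5%, against 3.83% of all genes). The riser was Hjv, the gene of the BMP co-receptor hemojuvelin, with 116 ± 17.3 in tumours, 135 ± 14.9 in non-tumour tissue and 85.4 ± 1.70 in normal diet liver (0.53 ± 0.07 for non-tumour against normal diet, adjusted p = 0.0182). That call was lost without normal diet mouse 117 (0.122) or 120 (0.0992) or the non-tumour tissue of mouse 186 (0.0539), and with the authors' values (0.0810). Acvr2b, an activin receptor, fell by 0.25 ± 0.03 (adjusted p = 0.0131), a call lost without normal diet mouse 117 (0.0579) or 120 (0.0976). Smad7, an inhibitory SMAD induced by the same route, averaged 25.9 ± 2.19 in tumours, 25.3 ± 4.80 in non-tumour tissue and 66.2 ± 28.9 in normal diet liver. Non-tumour against normal diet did not pass for Smad7 (-0.58 ± 0.12, adjusted p = 0.0570). It did pass with the blank mean subtracted (0.0243), with an offset of 16 (0.0277), with the authors' values (0.0325) and without normal diet mouse 120 (0.0162), in a range of 0.0162 to 0.199. Tumour against normal diet passed (-0.56 ± 0.12, adjusted p = 0.0167, and 0.0543 with only those groups).

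Of 13 tested genes of the interleukin-6 and STAT3 route, 4 rose and 2 fell in tumours against non-tumour tissue (46.2%, against 25.4% of all genes), and limma called 0 between non-tumour tissue and normal diet liver (3 at an unadjusted p below 0.05). Il6 itself was listed on 1 array, the tumour of mouse 1, at 1.8, and was not tested. Stat3, the factor that binds the STAT site, averaged 348 ± 61.6 in tumours, 268 ± 19.1 in non-tumour tissue and 275 ± 51.5 in normal diet liver, and Jak1, a kinase upstream of it, averaged 546 ± 107, 434 ± 42.6 and 487 ± 11.4. They rose over non-tumour tissue by 0.48 ± 0.11 (adjusted p = 0.0196) and 0.51 ± 0.11 (adjusted p = 0.0156). Both calls were lost with arrays scaled to the same median (0.117 and 0.0913) and with the authors' values (0.184 and 0.224). The Stat3 call was also lost without the tumour of mouse 117 (0.0604) or the non-tumour tissue of mouse 186 (0.0626) or 1 (0.0650). The Jak1 call was also lost without the non-tumour tissue of mouse 186 (0.0501). Jak2 and Tyk2, the other genes that rose, kept their calls under 3 and 5 of 17 alternatives. Their calls too were lost with arrays scaled to the same median and with the authors' values. The rises of this list thus depended on scaling. With the authors' values, limma had 1 of the 13 genes higher and 4 lower in tumours at an unadjusted p below 0.05. Cebpa, a hepatocyte transcription factor known to activate Hamp, averaged 74.1 ± 6.25 in tumours, 123 ± 9.78 in non-tumour tissue and 134 ± 15.6 in normal diet liver and fell by 0.45 ± 0.07 in tumours against non-tumour tissue (adjusted p = 0.00653). Cebpb, a related factor, fell by 0.71 ± 0.16 (adjusted p = 0.0224), a call lost without the tumour of mouse 117 (0.0680) or the non-tumour tissue of mouse 117 (0.0590), 186 (0.0706) or 1 (0.0587).

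**Figure D3:**
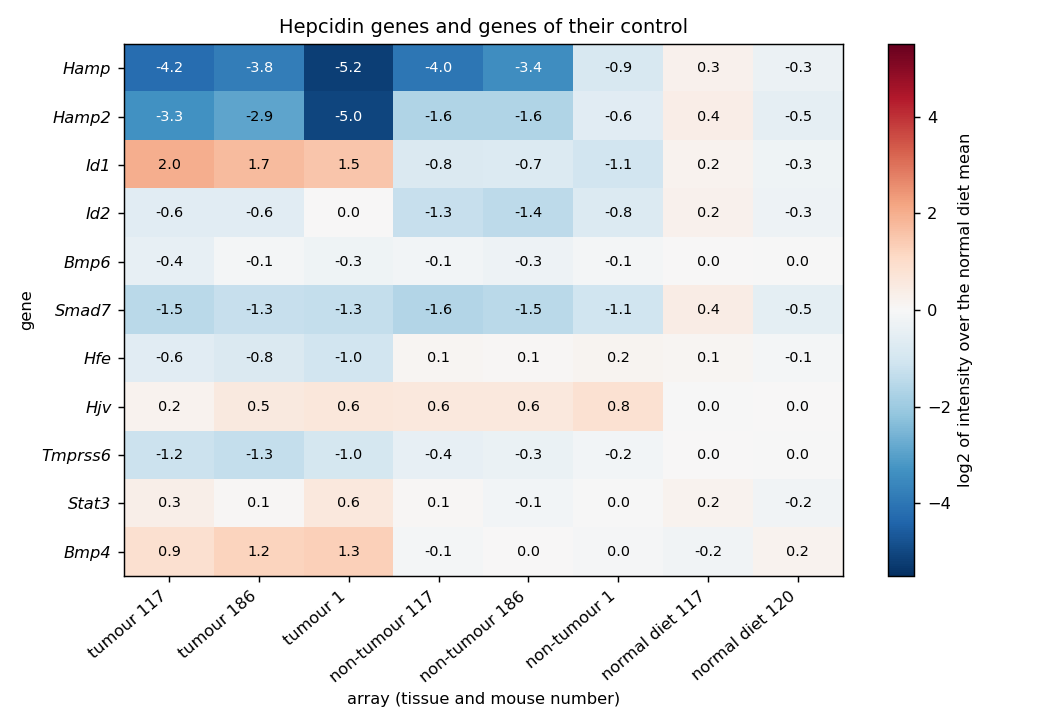
Log2 of the deposited intensity over the mean of the normal diet arrays, for the hepcidin genes and genes of their control on each of 8 arrays. Hamp and Hamp2 are blue (lower) on the 3 tumour arrays and Id1 is red (higher) there, and Hamp is also blue on the non-tumour arrays, least in mouse 1.

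Trf, the gene of transferrin, which carries iron in plasma, was among the brightest probes of every array. It had 44041.0, 40760.5 and 43962.4 in tumours of mice 117, 186 and 1, against 40210.4, 34221.2 and 39599.1 in non-tumour tissue and 37437.9 and 35980.7 in normal diet liver. Tumours did not overlap either other group, and non-tumour and normal diet values overlapped on this scale but not after normalization. By brightness Trf ranked 3 on each tumour array, 9, 11 and 9 on the non-tumour arrays and 16 and 17 on the normal diet arrays. Its log2 fold change was 0.30 ± 0.04 in tumour against non-tumour tissue (adjusted p = 0.00303), 0.31 ± 0.04 in non-tumour against normal diet (0.0205) and 0.61 ± 0.04 in tumour against normal diet (0.000417). Quantile normalization set this probe to 1 value on all tumour arrays, so the SE leaves out their spread. With the authors' values the differences were 0.18, 0.05 and 0.22 and none passed (adjusted p = 0.396, 0.894 and 0.285), while the median of all genes stood at -0.07, -0.12 and -0.20. The first call was also lost with the blank mean subtracted (0.0675) or arrays scaled to the same median (0.0925), and the second with the blank mean subtracted (0.185), with only the compared groups (0.0515) and without non-tumour mouse 117 (0.0622) or 1 (0.0533) or normal diet mouse 117 (0.102) or 120 (0.136). Over the alternatives the adjusted p ran from 0.00293 to 0.955, from 0.0124 to 0.894 and from 0.000385 to 0.285.

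Tfrc, the receptor by which cells take up transferrin and which cells make more of when short of iron, passed in no comparison. It had 75.9, 49.4 and 89.7 in tumours of mice 117, 186 and 1, against 206.3, 104.1 and 112.2 in non-tumour tissue and 50.3 and 66.2 in normal diet liver. Every non-tumour value was above all tumour and normal diet values, and mouse 117 was highest. The log2 fold change was -0.60 ± 0.24 in tumour against non-tumour tissue (adjusted p = 0.121), 0.85 ± 0.27 in non-tumour against normal diet (0.146) and 0.25 ± 0.27 in tumour against normal diet (0.544). In mice 117, 186 and 1 the tumour held 36.8%, 47.5% and 79.9% of the non-tumour level.

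Red cell precursors make much Tfrc, so red cell genes were read beside it. The summed level of 8 red cell markers was 30911.3, 14989.5 and 29464.4 in tumours of mice 117, 186 and 1, against 70057.3, 29772.2 and 21631.9 in non-tumour tissue and 13083 and 16250 in normal diet liver. Most of this sum was haemoglobin, with 29072.6 from Hbb-bs alone in the non-tumour sample of mouse 117, where the sum and Tfrc were both highest. By limma 4 of 8 markers were lower in tumours than in non-tumour tissue (50%, against 25.4% of all genes). There 0 were higher, also at an unadjusted p below 0.05. Between non-tumour tissue and normal diet liver 0 were higher (4 at an unadjusted p below 0.05) and 2, Car1 and Klf1, were lower. Those 2 were 25% of the 8 markers, against 3.83% of all genes. Alas2, the red cell enzyme of haem synthesis, averaged 108 ± 6.68 in tumours, 324 ± 34.9 in non-tumour tissue and 439 ± 69.1 in normal diet liver. Rhag, another red cell marker, was listed on 0 arrays. The part of red cells in the Tfrc values was not tested. The genes most like Tfrc over the 8 arrays were Phgr1, Slc6a20a, Pdk4, Limk1 and Gbe1, at root mean square differences of 0.16, 0.16, 0.19, 0.20 and 0.20. Pdk4 encodes a kinase that restrains pyruvate oxidation, Gbe1 the glycogen branching enzyme and Slc6a20a an amino acid transporter. Of the other 9 iron genes the closest to Tfrc was Fth1, at rank 377 (0.37), with Bmp6, which varied little, at 0.46 (rank 10286).

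Slc40a1, which encodes ferroportin, the target of hepcidin, was lower in every tumour. It had 101.5, 141.5 and 103.9 in tumours of mice 117, 186 and 1, against 224.2, 274.2 and 334.9 in non-tumour tissue and 386.5 and 335.9 in normal diet liver. Tumours lay below both other groups, and non-tumour mouse 1 and normal diet mouse 120 were so close that those groups overlapped after normalization, while the tumour held 45.3%, 51.6% and 31.0% of the non-tumour level in mice 117, 186 and 1. Tumours were lower than non-tumour tissue (log2 fold change -0.89 ± 0.14, adjusted p = 0.00555) and than normal diet liver (log2 fold change -1.08 ± 0.16, adjusted p = 0.00390), and non-tumour against normal diet did not pass (-0.19 ± 0.16, adjusted p = 0.579). Both calls held when any 1 array was left out. RNA of the exporter and of Hamp2 was thus lower in the same tumours.

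Macrophages make much ferroportin, and their markers were read beside it. Clec4f, a lectin of resident liver macrophages (Kupffer cells), averaged 71.3 ± 24.9 in tumours, 282.5 ± 98.6 in non-tumour tissue and 256 ± 35.9 in normal diet liver. Of 15 macrophage markers, all listed on every array, 1 (Folr2) was higher and 3 lower in tumours than in non-tumour tissue (26.7%, against 25.4% of all genes). Clec4f was among the lower ones (-1.40 ± 0.24, adjusted p = 0.00799), a call lost with mouse as a block (0.0631). Against normal diet liver 2 were higher and 4 lower in tumours (40%, against 27.9% of all genes). Clec4f was again among the lower ones (-1.19, adjusted p = 0.0202). That call was lost without the tumour of mouse 117 (0.0508) and also without either normal diet array. Their summed level was 2269.6 to 3093.7 in tumours, 3713.2 to 4297.5 in non-tumour tissue and 2331.5 to 3044.1 in normal diet liver. The part of macrophages in the Slc40a1 values was not tested.

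Fth1, the heavy chain of ferritin, which oxidises iron for storage, was lower in tumours than in the tissue around them and did not pass between tumours and normal diet liver. Its intensity was 14763.1, 15006.9 and 12571.1 in tumours of mice 117, 186 and 1, against 21504.1, 20782.8 and 22293.5 in non-tumour tissue and 17212.5 and 17722.0 in normal diet liver. On this scale no group overlapped another, with non-tumour tissue highest, and after normalization tumour and normal diet values overlapped. The log2 fold change was -0.43 ± 0.09 in tumour against non-tumour tissue (adjusted p = 0.0137), 0.44 ± 0.10 in non-tumour against normal diet (adjusted p = 0.0664) and 0.00 ± 0.10 in tumour against normal diet (adjusted p = 0.981). The last value was -0.31 with the authors' values (adjusted p = 0.149), the scale on which all tumours lay below normal diet liver. The comparison of non-tumour tissue with normal diet liver passed with only those groups (0.0138), with arrays scaled to the same median (0.00869) and without the tumour of mouse 186 (0.0347) or 1 (0.0142), in a range of 0.00869 to 0.999. Quantile normalization set Fth1 to 1 value on both normal diet arrays, so the SE leaves out their spread. The array table ties the Fth1 probe to a non-coding transcript record of the gene.

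Of 23 other genes of iron uptake, storage and export, 5 rose and 3 fell in tumours against non-tumour tissue (34.8%, against 25.4% of all genes). Ftl1, the ferritin light chain, averaged 18588 ± 835 in tumours, 35508 ± 1874 in non-tumour tissue and 32344 ± 795 in normal diet liver and fell by 0.78 ± 0.11 in tumours against non-tumour tissue (adjusted p = 0.00425). Both ferritin chains were thus lower in tumours than in non-tumour tissue. Lcn2, lipocalin 2, which binds bacterial iron carriers and rises in inflammation, averaged 4987 ± 1783 in tumours, 400 ± 103 in non-tumour tissue and 43.3 ± 7.42 in normal diet liver. It rose by 3.73 ± 0.26 in tumour against non-tumour tissue (adjusted p = 0.000459, passing under all 17 alternatives) and by 2.31 ± 0.29 in non-tumour tissue against normal diet liver (adjusted p = 0.0133, lost without normal diet mouse 117 at 0.0857 or 120 at 0.102). Cp, ceruloplasmin, a plasma ferroxidase that works beside ferroportin, averaged 11075 ± 2297 in tumours, 5397 ± 398 in non-tumour tissue and 3445 ± 390 in normal diet liver. It rose by 1.38 ± 0.12 in tumour against non-tumour tissue (adjusted p = 0.000829) and by 0.88 ± 0.14 in non-tumour tissue against normal diet liver (adjusted p = 0.0246). The second Cp call was lost without normal diet mouse 117 (0.0953) or 120 (0.155) or the non-tumour tissue of mouse 117 (0.0615), 186 (0.0718) or 1 (0.0619), and with the authors' values (0.104). Lcn2 and Cp were the 2 of 23 that changed between non-tumour tissue and normal diet liver.

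Slc39a4, a zinc transporter, rose in tumours against non-tumour tissue by 1.36 ± 0.18 (adjusted p = 0.00308), and Steap4, a metalloreductase, by 0.83 ± 0.20 (adjusted p = 0.0268). The Steap4 call was lost without the tumour of mouse 186 (0.0561) or 1 (0.0640) or the non-tumour tissue of mouse 117 (0.0840) or 1 (0.0851). Aco1 and Ireb2 encode the iron regulatory proteins, which bind ferritin, Tfrc and Slc40a1 transcripts when cells are short of iron. Aco1 averaged 502 ± 28.6 in tumours, 763 ± 66.8 in non-tumour tissue and 1022 ± 41.2 in normal diet liver and fell by 0.33 ± 0.08 in tumours against non-tumour tissue (adjusted p = 0.0234). The Aco1 call was lost with the blank mean subtracted (0.0679), with mouse as a block (0.0922) and without the non-tumour tissue of mouse 117 (0.0703) or 1 (0.0763). Ireb2 did not pass (-0.20 ± 0.09, adjusted p = 0.158).

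Hp, the gene of haptoglobin, which binds free haemoglobin and is made by hepatocytes in the acute phase, was highest in tumours and lowest in normal diet liver. Its intensity was 25260.7, 22934.7 and 29276.9 in tumours of mice 117, 186 and 1, against 19969.7, 21284.0 and 22446.6 in non-tumour tissue and 13074.1 and 11452.8 in normal diet liver. No group overlapped another, and each tumour was above its own non-tumour tissue. The log2 fold change was 0.47 ± 0.07 in tumour against non-tumour tissue (adjusted p = 0.00446), 1.14 ± 0.08 in non-tumour against normal diet (adjusted p = 0.00237) and 1.61 ± 0.08 in tumour against normal diet (adjusted p = 0.000113). The last call passed under all 16 alternatives, local background correction included. The first was lost with the authors' values (0.28, adjusted p = 0.224) and with arrays scaled to the same median (0.0556), in a range of 0.00354 to 0.224. Quantile normalization set Hp to the same value in the tumours of mice 117 and 1. It did likewise in the non-tumour tissue of mice 186 and 1, so the SE leaves out the spread between these arrays.

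Hpx, the gene of hemopexin, which carries free haem to the liver, was highest in tumours. It had 21291.2, 20204.5 and 22087.3 in tumours of mice 117, 186 and 1, against 16744.3, 18810.1 and 17478.4 in non-tumour tissue and 16152.3 and 15680.0 in normal diet liver. The groups did not overlap. It rose by 0.51 ± 0.09 in tumour against non-tumour tissue (adjusted p = 0.00776) and by 0.89 ± 0.10 in tumour against normal diet (adjusted p = 0.00154), and non-tumour against normal diet did not pass (0.38 ± 0.10, adjusted p = 0.0947). With the authors' values neither rise passed (0.26, adjusted p = 0.184, and 0.41, adjusted p = 0.0567), in ranges of 0.00355 to 0.953 and 0.000660 to 0.631. With arrays scaled to the same median the comparison of non-tumour tissue with normal diet liver passed (0.0107, range 0.0107 to 0.999).

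The log2 differences of Trf, Hp, Hpx and Fth1 depend on how the brightest probes are scaled. In tumour against non-tumour tissue the median over the brightest 168 genes was -0.08 after quantile normalization, -0.28 with scaling to the same median and -0.32 with the authors' values. By rank of brightness on an array Hp stood at 17, 18 and 17 in tumours of mice 117, 186 and 1, 32, 27 and 27 in non-tumour tissue and 63 and 75 in normal diet liver. Hpx stood at 27, 23 and 25 in tumours, 42, 33 and 39 in non-tumour tissue and 50 and 53 in normal diet liver. Both thus ranked nearer the top in each tumour than in its own non-tumour tissue.

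Of 20 genes of haem synthesis, transport and breakdown, 1 rose and 8 fell in tumours against non-tumour tissue (45%, against 25.4% of all genes), with a median log2 fold change of -0.36. By limma 0 changed between non-tumour tissue and normal diet liver (3 at an unadjusted p below 0.05). Alas1, the rate-limiting enzyme of haem synthesis in liver, averaged 1564 ± 915 in tumours, 7804 ± 2205 in non-tumour tissue and 4548 ± 2004 in normal diet liver and fell by 2.19 ± 0.58 in tumours against non-tumour tissue (adjusted p = 0.0356). That call was lost with only the compared groups or without either normal diet array (0.0523 each), and without the tumour of mouse 186 (0.0515) or the non-tumour tissue of mouse 117 (0.106), 186 (0.0805) or 1 (0.0753). Blvrb, a biliverdin reductase, fell by 1.16 ± 0.13 (adjusted p = 0.00183), Hebp1, a haem-binding protein, by 1.12 ± 0.11 (adjusted p = 0.000995) and Abcb6, a porphyrin transporter, by 1.03 ± 0.11 (adjusted p = 0.00171). Hmox1, haem oxygenase, which releases iron from haem, averaged 146 ± 26.6 in tumours, 212 ± 33.4 in non-tumour tissue and 136 ± 14.2 in normal diet liver. It did not pass between tumour and non-tumour tissue (-0.33 ± 0.12, adjusted p = 0.101), and passed with mouse as a block (0.0123) or arrays scaled to the same median (0.0463).

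Of 13 genes of mitochondrial iron and iron-sulfur clusters, 0 rose and 7 fell in tumours against non-tumour tissue by limma (0 and 8 at an unadjusted p below 0.05), or 53.8% against 25.4% of all genes, with a median of -0.26. Glrx5, which hands on iron-sulfur clusters, averaged 878 ± 130 in tumours, 2044 ± 239 in non-tumour tissue and 1656 ± 21.5 in normal diet liver and fell by 0.91 ± 0.14 in tumours against non-tumour tissue (adjusted p = 0.00571). Bola3, which works with it, fell by 0.70 ± 0.09 (adjusted p = 0.00309), and Lias, the cluster-dependent lipoic acid synthase, by 0.58 ± 0.10 (adjusted p = 0.00952). Fdx1, a ferredoxin, fell by 0.61 ± 0.16 (adjusted p = 0.0317), a call lost without either normal diet array (0.0562 each), the tumour of mouse 186 (0.0653) or 1 (0.0823) or the non-tumour tissue of mouse 117 (0.0921) or 186 (0.0789). Slc25a28, a mitochondrial iron importer, was the gene of this list that changed between non-tumour tissue and normal diet liver, falling by 0.50 ± 0.07 in non-tumour tissue (adjusted p = 0.0225). That call was lost without normal diet mouse 117 (0.123) or 120 (0.141) or the non-tumour tissue of mouse 117 (0.0703) or 186 (0.0608), and with arrays scaled to the same median (0.0615).

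Over the 5 lists, 39 of 95 tested genes changed between tumour and non-tumour tissue (41.1%, against 25.4% of all genes), 17 higher and 22 lower. Between non-tumour tissue and normal diet liver 6 changed (6.32%, against 3.83%), and between tumours and normal diet liver 37 did (38.9%, against 27.9%).

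**Figure D4:**
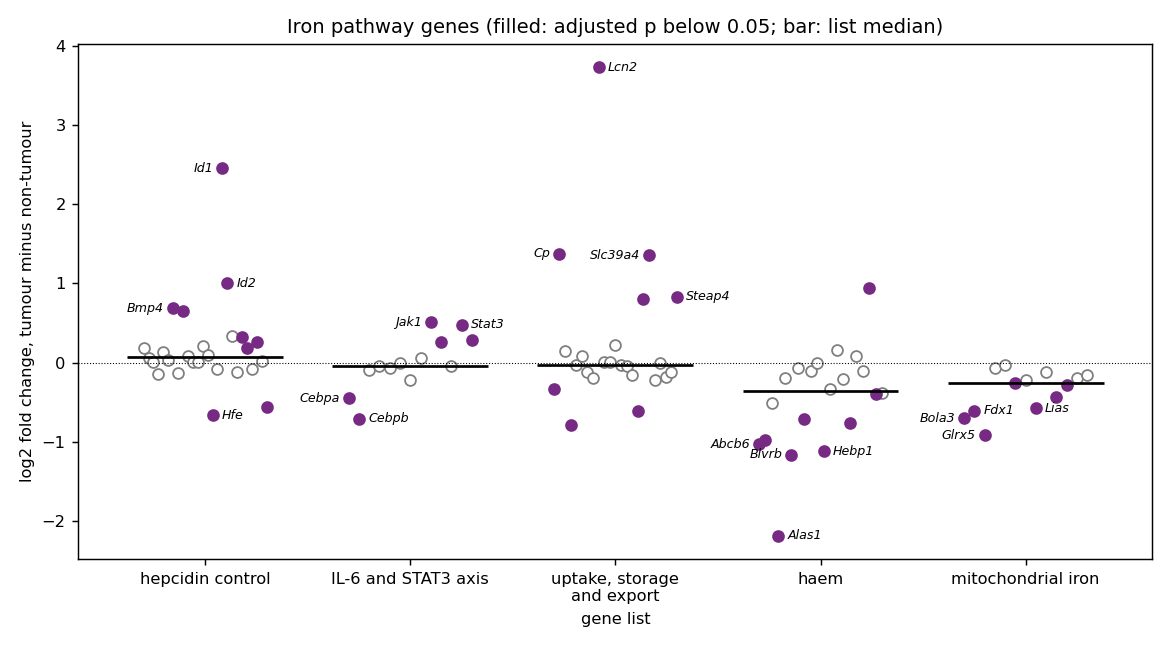
Log2 fold change, tumour minus non-tumour tissue, of the genes tested in 5 iron lists, with filled points where the adjusted p was below 0.05 and bars at list medians. The medians of the haem and mitochondrial lists lie at -0.36 and -0.26, with Alas1 lowest at -2.19, and Lcn2 lies highest at 3.73.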

How the data were processed

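Per the labels' protocols, RNA was extracted with a column kit and hybridised to single-colour arrays. The authors deposited a normalized intensity per probe, which, as recomputed from the scanner files, equals the median of a spot less the average of that array's blank spots, scaled by a constant for each array, with probes near the blank level left empty. These deposited intensities are the levels in the text. How the authors chose the cut-off for empty probes is not given in the sources used here.

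For tests, the scanner spot medians, also deposited as intensity, were corrected by normexp with 2736 blank spots as negative controls (offset 50). They were then quantile normalized on the linear scale and taken to log2 (limma 3.58.1, R 4.3.3). Probes were named by the platform annotation: 20690 of 23473 had 1 symbol, 0 several and 2783 none, and 20556 matched a GRCm38.p6 gene number, which changed 0 symbols. Genes were tested if some group had them listed on each of its arrays (16798, with 2523 left out). Group means were fitted to 8 arrays with empirical Bayes moderation (5 residual and 1.49 prior degrees of freedom), and 2-sided p values were adjusted by Benjamini-Hochberg over all genes tested. The fit was tested on simulated data with 200 changed genes. Array number (3, 3 and 2 per group) limits the precision.

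Per the labels, a mouse number shared by tumour and non-tumour tissue marks 1 liver. Their deviations from group means correlated at 0.44, 0.15 and 0.17 in mice 117, 186 and 1, and at -0.27 to 0.03 between different mice. The number was left out of the main model and used as a block in an alternative. Other alternatives changed the background, offset, scaling, filter, arrays in the fit or values used, or left out 1 array.

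The genes, lists and tests were chosen with earlier results of these data known. Named genes are the 10, up to 4 changed genes per list by size between tumour and non-tumour tissue and up to 2 between non-tumour tissue and normal diet liver, counterparts of the 10 (such as Hfe and Ftl1), the 5 genes most like Hamp and like Tfrc, and Alb, Alas2, Clec4f and Stab2. Other markers named (Tspan8, Cftr, Hbb-bs, Car1, Klf1, Rhag, Clec4g and Folr2), and Jak2, Tyk2 and Smad4, were chosen after their values were seen.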

Additional observations from a re-analysis of the deposited data

How the results depend on the processing

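Over 30 results for single genes (10 genes in 3 comparisons), 490 values were obtained under alternatives. They stayed on the same side of the threshold in 429 cases, lost a call in 55, gained a call in 6 and reversed a call in 0. The 429 include values whose direction turned where neither fit passed. Bmp6, for example, kept its direction under 13 of 17 alternatives in tumour against non-tumour tissue and 12 of 16 in tumour against normal diet. Genes changed between tumour and non-tumour tissue numbered 4269, and 126 with local background correction. Of the 10 genes, 7 changed there, 0 with local background (3 at an unadjusted p below 0.05) and 4 with the authors' values, and of the list genes 39, and 2 with local background. Between non-tumour tissue and normal diet liver, 644 genes changed, 3 with local background, 1403 with scaling to the same median and 95 to 781 when 1 array was left out. Of the 10 genes, 2 changed there, 1 with the blank mean subtracted or the authors' values, 0 with local background (3 unadjusted), 4 with scaling to the same median and 1 to 3 when 1 array was left out. Of the list genes 6 changed, 0 with local background (4 unadjusted), 10 with an offset of 16, 13 with scaling to the same median and 0 to 9 when 1 array was left out. Between tumours and normal diet liver, 4679 genes changed, 220 with local background and 2318 to 4440 when 1 array was left out. Of the 10 genes, 7 changed there, 1 with local background and 4 to 7 when 1 array was left out, and of the list genes 37, and 3 with local background. All these counts are from limma, and the causes were not tested.

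The share of changed genes that were higher in non-tumour tissue than in normal diet liver was 47.2%, and 77.3% with scaling to the same median. With mouse as a replicate block, 3496 genes, 5 of the 10 and 37 list genes changed between tumour and non-tumour tissue, and of the 10 genes Hamp2 (adjusted p 0.125) and Tfr2 (0.0576) lost their call. Leaving out a normal diet array leaves 1, assumed to vary like the other groups. Each of the 10 genes had 1 probe, so another probe could not be tried.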
